A study of Mus musculus with 11 samples.

Results

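Transcript levels of 9 genes for subunits of the Polycomb repressive complexes were followed through 4 days of ventral hindbrain differentiation of mouse embryonic stem cells. The genes were Ezh1, Ezh2, Eed, Suz12, Jarid2, Cbx2, Cbx6, Cbx7 and Cbx8. They were taken by symbol from the 38197 genes of the deposited count table, and all 9 were found and passed the filter on low counts. The cells were E14, a mouse embryonic stem cell line of strain 129 and wild-type genotype, and every library came from this one line grown as a monolayer. Retinoic acid (RA), a caudalizing signal, and SAG, an agonist that switches on hedgehog signalling, were the inducing agents, applied over days 0 to 3 per the labels. Unsorted cultures gave 2 libraries each at day 0 (undifferentiated stem cells), day 1, day 2 and day 3. A further 3 libraries came from progenitors sorted on Prominin-1, a membrane protein that marks neural progenitors. One label puts these at day 3.5 and another at 3 days, and their sample codes carry a different prefix, whose meaning the labels do not state. Sorting, time and any batch behind the prefix cannot be told apart. The labels do not say whether replicates were separate cultures, so p-values measure the spread between these libraries, which may be technical.

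Polycomb repressive complex 2 (PRC2) places methyl groups on lysine 27 of histone H3 through Ezh2 or its paralog Ezh1, held in a core with Eed and Suz12, and Jarid2 is an accessory subunit. The canonical form of Polycomb repressive complex 1 (PRC1) reads this mark through a Cbx chromodomain protein, with a single Cbx in each complex. In mouse embryonic stem cells the complexes hold developmental genes in a silent state that can be reversed, and Cbx7 is known there as the main Cbx paralog.

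The 9 genes lie at 5 chromosomes in the GRCm38 build, by the GENCODE annotation. Ezh2 is at chr6:47530139-47595341 on the minus strand and Ezh1 at chr11:101191115-101226463, also on the minus strand. Eed is at chr7:89954654-89980983 (minus), Suz12 at chr11:79993106-80034123 (plus) and Jarid2 at chr13:44729474-44921643 (plus). The Cbx genes form 2 small groups of neighbours. Cbx2 (chr11:119022962-119031270, plus) and Cbx8 (chr11:119036305-119040969, minus) are 5034 bp apart, with no protein-coding gene between them. Cbx6 (chr15:79823896-79834688, minus) and Cbx7 (chr15:79915807-79971119, minus) are 81118 bp apart, again with no protein-coding gene between. Exons of Eed share 6.8% of their bases with the opposite-strand transcript E230029C05Rik, and those of Ezh2, Suz12 and Cbx7 share 1.5% to 3.6% with opposite-strand genes. Since no source used here states whether counting used strand, reads of such pairs cannot be told apart there. Cbx6 shares 5.3% of its exonic bases with Npcd on the same strand.

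Promoter sequences were available for 8 of the 9 genes from RefSeq (GRCm38.p6), each of 300 bases, from 250 before to 50 after the start site. The windows of these 8 genes held 17 to 41 CpG dinucleotides, against a median of 7 over 32851 mouse promoters. A search was made on both strands for the E2F octamers TTTCCCGC, TTTGGCGC and TTTCGCGC, which mark many genes of the dividing cell cycle, and for the CCAAT box. E2F octamers were found in 1.8% of all promoters and, among the 8 genes, in Ezh2 (bases 4 to 11 after the start) and Suz12 (219 to 212 bases before it). CCAAT was found in 37.4% of all promoters. The sequences below belong to the catalytic pair Ezh1 and Ezh2, to Suz12 and Jarid2, which fell, and to Cbx8, which rose by the largest factor of the 9. Each is written 5′ to 3′ on the strand of its gene, with E2F octamers and CCAAT boxes, in either orientation, in capitals. Their positions are chr11:101226414-101226713 (Ezh1), chr6:47594981-47595280 (Ezh2), chr11:79992856-79993155 (Suz12), chr13:44730524-44730823 (Jarid2, the first of 2 start sites) and chr11:119040864-119041163 (Cbx8).
Ezh1: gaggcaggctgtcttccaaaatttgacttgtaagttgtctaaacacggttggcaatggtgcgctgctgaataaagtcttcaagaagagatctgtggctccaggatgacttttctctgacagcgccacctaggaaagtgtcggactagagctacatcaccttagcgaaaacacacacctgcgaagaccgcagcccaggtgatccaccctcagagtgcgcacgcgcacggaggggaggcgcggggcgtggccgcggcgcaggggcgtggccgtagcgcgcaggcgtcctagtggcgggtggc
Ezh2: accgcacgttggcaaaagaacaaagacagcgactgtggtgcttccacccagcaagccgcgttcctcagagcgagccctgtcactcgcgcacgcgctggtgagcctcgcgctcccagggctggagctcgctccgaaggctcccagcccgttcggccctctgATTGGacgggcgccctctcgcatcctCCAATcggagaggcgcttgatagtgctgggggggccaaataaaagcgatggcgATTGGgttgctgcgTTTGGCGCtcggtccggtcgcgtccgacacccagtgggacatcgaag
Suz12: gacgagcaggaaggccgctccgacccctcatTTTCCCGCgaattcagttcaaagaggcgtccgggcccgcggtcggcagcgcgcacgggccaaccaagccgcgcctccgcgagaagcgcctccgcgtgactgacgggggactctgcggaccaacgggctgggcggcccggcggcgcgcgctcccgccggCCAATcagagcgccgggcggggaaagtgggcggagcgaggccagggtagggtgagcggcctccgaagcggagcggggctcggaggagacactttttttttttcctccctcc
Jarid2: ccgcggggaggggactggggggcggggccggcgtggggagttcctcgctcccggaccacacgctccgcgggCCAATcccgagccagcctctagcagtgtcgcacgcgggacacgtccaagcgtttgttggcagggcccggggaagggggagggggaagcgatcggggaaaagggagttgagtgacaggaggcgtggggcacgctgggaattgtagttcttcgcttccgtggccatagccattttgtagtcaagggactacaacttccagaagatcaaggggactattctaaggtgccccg
Cbx8: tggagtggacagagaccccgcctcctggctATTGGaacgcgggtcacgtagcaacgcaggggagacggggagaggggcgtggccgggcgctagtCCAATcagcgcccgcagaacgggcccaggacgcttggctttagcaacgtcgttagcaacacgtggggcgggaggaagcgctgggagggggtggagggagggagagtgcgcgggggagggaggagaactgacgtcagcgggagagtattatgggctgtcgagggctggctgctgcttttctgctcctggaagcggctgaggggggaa
The Ezh1 window held neither motif, while the Ezh2 window held an E2F octamer and 3 CCAAT boxes. A match is a description of these letters and says nothing of binding.

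Gene counts summed to between 26136331 and 30384599 per unsorted library and to between 13173674 and 17113430 per sorted library. Replicates differed by far more than counting noise, with a chi-square of 10.5 to 63.4 per gene within groups. Counts in day 0 replicate 2 and day 1 replicate 1 fell with the GC content of a gene, by 0.71 and 0.70 on the log2 scale between 42% and 57% GC, where the other 9 libraries ranged from -0.24 to 0.42. This bears on the 4 Cbx genes, whose longest transcripts hold 54.9% to 57.6% GC, and in the opposite sense on Suz12 (41.6%) and Ezh2 (44.4%). Between day 0 and day 3, stem cell and neural progenitor markers followed the labels. All 7 stem cell markers fell from day 0 to day 3, from a summed 622 to 1050 CPM (counts scaled to the library total) to 25.8 to 36.2, and to 9.54 to 12.8 in the sorted cells. None was at 0 in all libraries of a group, but Nanog and Prdm14 had a minimum of 0 CPM among the sorted libraries. All 7 neural progenitor markers rose from day 0 to day 3, from a sum of 217 to 292 CPM to 1110 to 1120. The sum was 1490 to 1740 in sorted cells. Nes gave most of it, with a mean of 187 of 255 CPM at day 0 and 888 of 1620 after sorting. At day 1 the progenitor sum was 229 to 257 CPM, in the range of day 0. There, 3 of the 7 were called higher and 1, Nes, lower (-1.09 on the log2 scale), beside 12% and 8.91% of all genes. Pax6 had its highest mean at day 2 (96.8 CPM), and its day 3 libraries stood at 12.4 and 66.2. Against day 3, the sorted cells had lower means of Sox1 (77.8 to 60.6) and Pax6 (39.3 to 34.5). Those of Nes, Prom1, Fabp7, Hes5 and Nkx6-1 were higher, and 1 of the 7 was called higher, beside 0.435% of all genes. The 6 neuron markers summed to 311 to 343 CPM at day 0, 66.7 to 83.7 at days 1 and 2, 709 to 805 at day 3 and 675 to 1080 in the sorted cells. Stmn2 alone gave 309 of the mean sum of 327 CPM at day 0, and it was lower at day 3 (-1.54) while the other 5 were higher. The 6 extraembryonic endoderm markers summed to 412 to 565 CPM at day 0, 1080 to 1820 at days 2 and 3, and 224 to 281 after sorting. Lama1 gave most of this sum, with a mean of 368 of 488 CPM at day 0 and 1300 of 1460 at day 3. Gata6 had a mean of 18 CPM on each of these days. Of the 6, 2 were called higher and 0 lower at day 3 against day 0, beside 27.6% and 26.3% of all genes. Mesoderm markers summed to at most 17.8 CPM in any library, with Mesp1 at 0 from day 2 on, and fibroblast markers to at most 61.5 CPM.

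From day 0 to day 3, Jarid2, Eed and Suz12 fell and Cbx8 and Cbx2 rose, while Ezh1, Ezh2, Cbx6 and Cbx7 did not pass the test. Levels are given as CPM scaled by edgeR's trimmed mean (TMM) factors, and a gene was called where the adjusted p of edgeR's quasi-likelihood test was under 0.05. Of the 9 genes, 2 were called higher and 3 lower at day 3 against day 0, where 27.6% of the 16810 genes tested were higher, 26.3% lower and 53.9% changed in either direction. Over any of the 4 days, 5 of the 9 changed, beside 53.7% of all genes, so the number that changed was near the background. The median log2 fold change of the 9 was -0.23, against 0.02 for all genes. Most of the change came in the first 2 days. At day 1 against day 0, 1 gene was called higher (Cbx8) and 2 lower (Eed and Jarid2), where 12% of all genes were higher, 8.91% lower and 20.9% either. At day 2 against day 1, 2 were higher (Cbx2 and Cbx8) and 2 lower (Suz12 and Jarid2), beside 9.65% higher, 9.99% lower and 19.6% either among all genes. At day 3 against day 2, 0 of the 9 were called by edgeR and 0 by DESeq2, and 0 had an unadjusted p under 0.05, with 2.81% of all genes higher, 1.26% lower and 4.07% either. In bulk RNA, fewer cells of a type and less RNA per cell cannot be told apart.

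**Figure D1:**
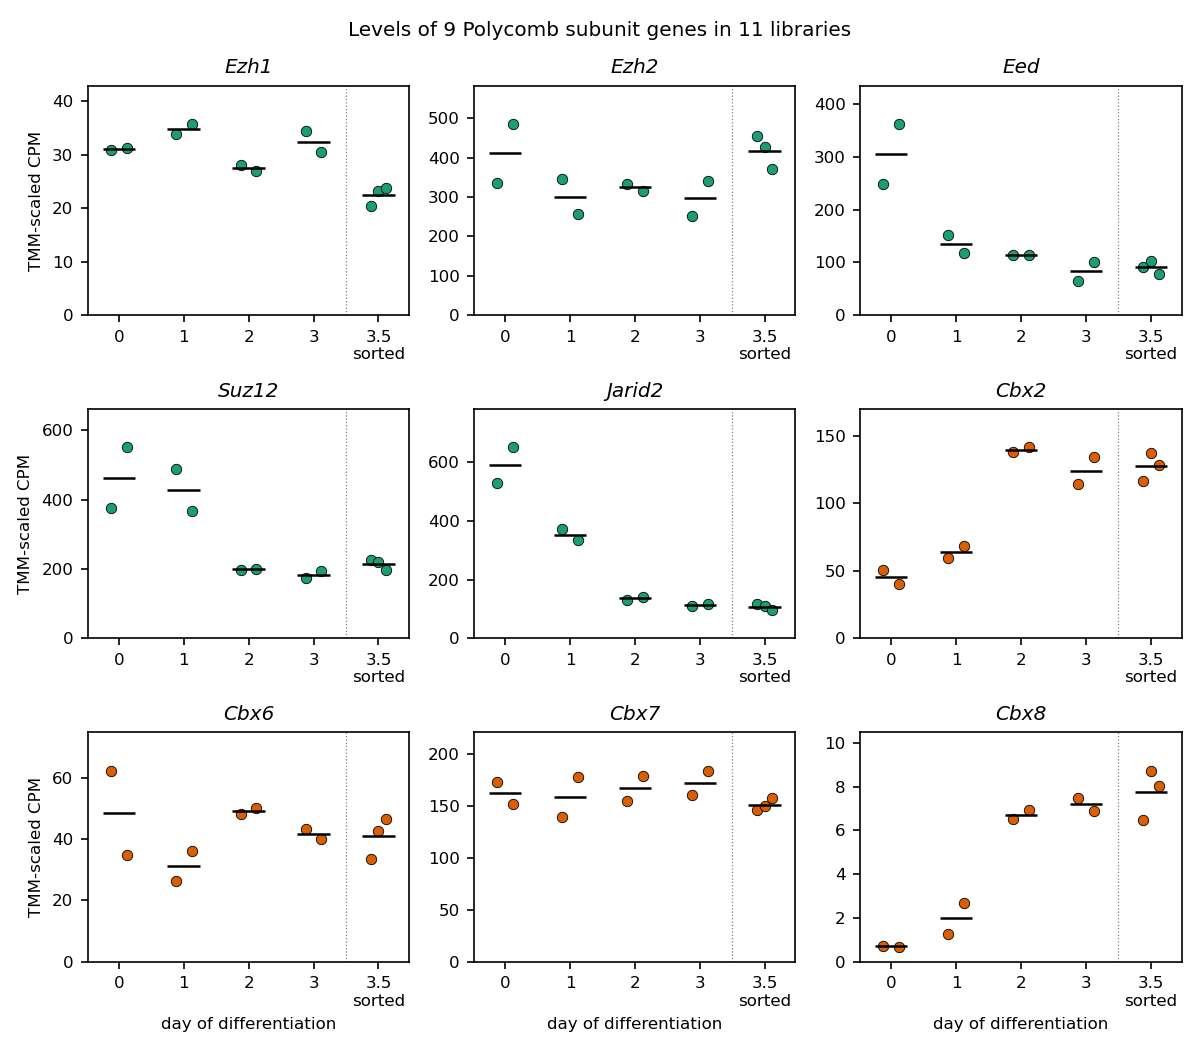
Level of each of the 9 genes (y axis, TMM-scaled CPM, starting at 0) by day of differentiation (x axis). Points are single libraries, black bars group means, and the dotted line separates the sorted day 3.5 libraries; Jarid2 fell from 527 and 649 CPM to 109 and 118, and Cbx8 rose from 0.713 and 0.68 to 7.49 and 6.89.

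**Figure D2:**
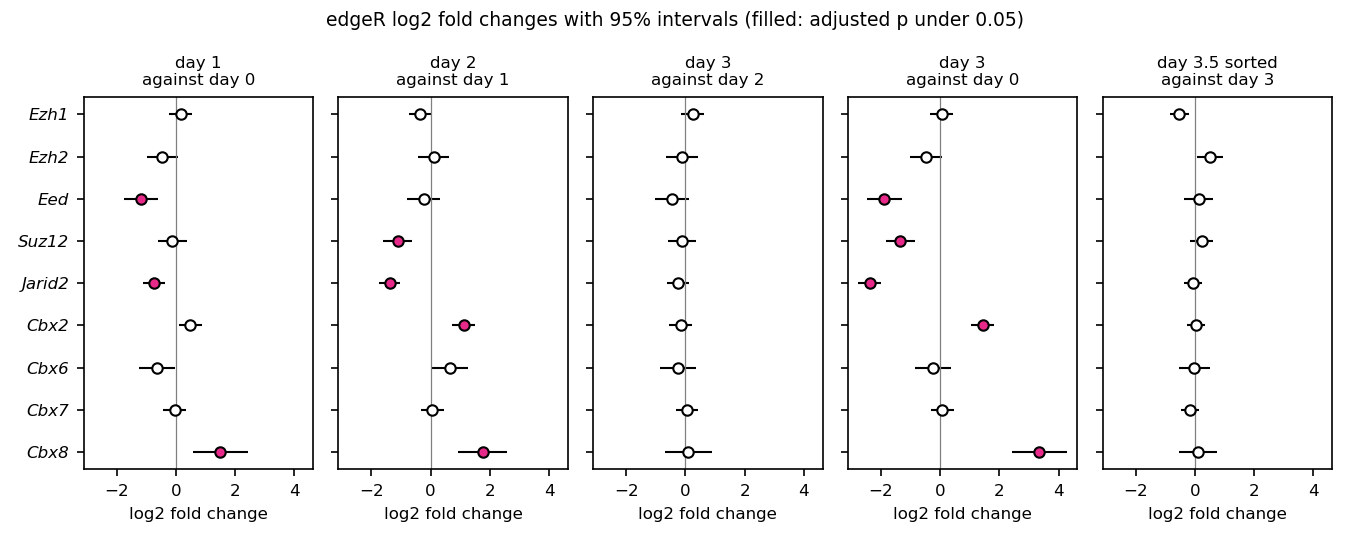
Log2 fold change (x axis) of each gene (y axis) in the 5 comparisons, with 95% intervals from edgeR; filled points had an adjusted p under 0.05. The filled points lie in the day 1, day 2 and net panels, with none at day 3 against day 2 or in the sorted cells.

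The catalytic subunits kept their order throughout. Ezh2 was at 336 and 485 CPM on day 0, then 345 and 256 on day 1, 334 with 316 on day 2, 253 with 342 on day 3, and 455, 426 and 370 in the sorted cells. The day 0 libraries spanned a range that overlapped that of day 3, and the net change of -0.47 on the log2 scale had an interval from -1 to 0.05 (adjusted p = 0.115). Ezh1, the paralog that is more abundant in many non-dividing tissues, was at 30.9 and 31.3 CPM on day 0, then 34.0 and 35.7 on day 1, 28.2 with 26.9 on day 2, 34.4 with 30.6 on day 3, and 20.4, 23.3 and 23.9 after sorting. Its net change was 0.06, with an interval from -0.33 to 0.44 (adjusted p = 0.797). Without day 0 replicate 1 the net change of Ezh2 became -0.72, but day 0 then held only replicate 2, a library of low GC trend. Over the 8 fits that each left out 1 library it ranged from -0.718 to -0.179, so its size depended on the library left out. With the GC correction, Ezh2 was called lower at day 1 (-0.46; adjusted p = 0.0262) and Ezh1 lower at day 2 against day 1 (-0.42; 0.0339).

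Between genes, levels were compared per length, as deposited FPKM (fragments per kilobase, scaled to library size). Ezh1 stood at 4.99 ± 0.302% of the Ezh2 level at day 0 (SD, n = 2). The ratio was 6.11 ± 2.15% at day 1, 5.62 ± 0.0451% at day 2 and 7.47 ± 1.29% at day 3 (n = 2 each). Both day 3 libraries (8.38% and 6.56%) were above both day 0 libraries (5.20% and 4.77%), while day 1 spanned 4.58% to 7.63%. In the sorted cells the ratio was 3.34 ± 0.567% (n = 3), below all 8 unsorted libraries. Neither separation held with CPM per kilobase of the longest transcript. On that scale the day 3 libraries (9.01% and 5.93%) overlapped those of day 0 (6.08% and 4.27%), and the highest sorted library, at 4.27%, was level with day 0 replicate 2. Ezh1 did not exceed 8.38% of Ezh2 in any library by FPKM, or 9.25% by CPM per kilobase.

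Eed and Suz12, the partners of the catalytic subunit, were called lower at different steps, Eed at day 1 and Suz12 at day 2. Their steps were not tested against each other. Eed, which binds the methylated histone tail, had 248 and 362 CPM at day 0 and 151 and 117 at day 1. It stood at 114 in both day 2 libraries, at 65.4 and 102 at day 3, and at 91.9, 103 and 77.4 after sorting. Its day 1 libraries lay below both day 0 libraries, a change of -1.19 ± 0.25 (log2, SE; adjusted p = 0.0121), and its net change was -1.88 ± 0.26 (3.67-fold lower; adjusted p = 0.000357). Suz12, which holds the core together, was at 375 and 550 CPM on day 0 and then at 489 and 367. These ranges overlapped, and the day 1 change was -0.12 with an interval from -0.61 to 0.37. It then dropped to 199 and 201 CPM at day 2 and stayed at 173 and 195 at day 3, with 227, 221 and 197 after sorting. The step at day 2 was -1.11 ± 0.22 (adjusted p = 0.00845) and the net change -1.34 ± 0.22 (2.53-fold lower; adjusted p = 0.000895). Both net falls held in each fit that left out 1 library; the day 1 call of Eed was lost without day 0 replicate 2 (adjusted p = 0.06) and the day 2 call of Suz12 without day 2 replicate 1 or 2 (0.0738 and 0.0628). Of 15 proliferation genes, 10 fell from day 0 to day 3 and 0 rose (median -0.77), where 26.3% of all genes were lower and 27.6% higher (median 0.02). They summed to 7180 to 7890 CPM at day 0, 5400 to 6090 at day 1, 5730 to 5850 at day 2 and 3940 to 5130 at day 3. In the sorted cells they summed to 5000 to 6030 CPM, and their part in the result was not tested. The called genes included Ccne1 (-2.40), a cyclin of entry into DNA synthesis, Ccnb1 (-1.11), a mitotic cyclin, and Pcna (-0.64), the sliding clamp of DNA replication. The call of Pcna was lost without day 3 replicate 1 (adjusted p = 0.0719) and on unfiltered FPKM (0.0695).

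Jarid2, a DNA-binding accessory subunit that brings PRC2 to its targets in stem cells, fell the most of the 9. It had 527 and 649 CPM on day 0, then 370 and 335 on day 1, 131.1 with 140.5 on day 2, and 109 with 118 on day 3. Sorted cells held 118, 109 and 97.2 CPM. Every library of days 1, 2 and 3 lay below all libraries of the day before, and the net change was -2.38 ± 0.17 (5.22-fold lower; adjusted p = 9.65e-06). The step at day 1 was -0.75 ± 0.16 (adjusted p = 0.0123) and that at day 2 -1.38 ± 0.16 (adjusted p = 0.000753). At day 0 Jarid2 stood at 164 ± 41.7 FPKM (SD, n = 2), the highest mean of the 9 genes, and at day 3 at 30.3 ± 2.60, the fifth. The stem cell markers fell beside it, as given above, and their part in the result was not tested. The day 1 call was lost without day 0 replicate 2 (a change of -0.584) or day 1 replicate 2 (-0.67). It was also lost with limma on all 3 FPKM scales (adjusted p from 0.134 to 0.309).

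Cbx8 rose by the largest factor, from a low level. It had 0.713 and 0.68 CPM on day 0 (21 and 16 counts), then 1.26 and 2.70 on day 1 (35 and 86 counts), 6.52 with 6.92 on day 2, 7.49 with 6.89 on day 3, and 6.46, 8.73 and 8.05 in the sorted cells. All libraries from day 2 on lay above all of days 0 and 1. The net change was 3.35 ± 0.41 on the log2 scale (10.2-fold higher; adjusted p = 0.000181), with steps of 1.50 ± 0.41 at day 1 (adjusted p = 0.0326) and 1.75 ± 0.37 at day 2 (adjusted p = 0.012). The net rise held in each fit that left out 1 library. The day 1 call was lost in 7 of the 8 fits that each left out 1 library (adjusted p from 0.0536 to 0.19), all but the one without day 1 replicate 1. The day 2 call was lost without day 1 replicate 1 (0.0527), day 2 replicate 1 (0.0678) or day 2 replicate 2 (0.0668).

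Cbx2, a paralog known for compacting nucleosomes, rose at day 2. It was at 50.6 and 40.1 CPM on day 0, then 59.8 and 68.3 on day 1, 138 with 142 on day 2, 114 with 134 on day 3, and 116.8, 137.2 and 128.2 after sorting. The day 1 libraries lay above those of day 0, but the change of 0.49 ± 0.17 did not pass the test (adjusted p = 0.0708); it passed with all 11 libraries in the fit (0.0359) and with limma on the deposited log2 values (0.0408). The step at day 2 was 1.12 ± 0.17 (adjusted p = 0.00255) and the net change 1.45 ± 0.17 (2.72-fold higher; adjusted p = 0.000151). With counts corrected for each library's GC trend, the net rise of Cbx2 was 0.80 and still called (adjusted p = 0.00717), while the day 2 step fell to 0.55 and was not called (0.0696). With both libraries of low GC trend left out, the calls of Cbx2 held at day 2 and over the whole course. Days 0 and 1 then had 1 library each.

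Cbx7 and Cbx6, the neighbours on chromosome 15, did not pass the test. Cbx7 was at 173 and 152 CPM on day 0, then 140 and 178 on day 1, 155 with 179 on day 2, 161 with 184 on day 3, and 146, 150 and 158 after sorting. Its ranges overlapped between all unsorted days, and the net change was 0.08 with an interval from -0.31 to 0.46 (adjusted p = 0.733). This interval lies below that of Cbx2 (1.06 to 1.83) and of Cbx8 (2.42 to 4.28) in the same comparison. Cbx6, a less studied paralog, was at 62.4 and 34.8 CPM on day 0, then 26.2 and 36.2 on day 1, 48.3 with 50.3 on day 2, 43.4 with 39.9 on day 3, and 33.6, 42.6 and 46.7 after sorting, a net change of -0.23 with an interval from -0.84 to 0.38. The day 0 libraries of Cbx6 stood far apart and the lower of them was replicate 2, a library of low GC trend. With the GC correction both were called lower at day 3 against day 0, Cbx7 at -0.45 (adjusted p = 0.0369) and Cbx6 at -0.54 (0.00838). With both libraries of low GC trend left out, Cbx6 changed by -0.59 and Cbx7 was not called. Day 0 then held only replicate 1, the higher of the 2 for Cbx6. Without day 0 replicate 2 alone, Cbx6 was called lower at day 1 (-1; adjusted p = 0.0248), and without either day 0 library it was called higher at day 2 against day 1 (0.0427 without replicate 1 and 0.042 without replicate 2).

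The make-up of the summed Cbx2, Cbx6, Cbx7 and Cbx8 transcripts shifted most between day 1 and day 2. Cbx7 gave 77.2 ± 4.27% of the summed FPKM at day 0 and 77.0 ± 0.0789% at day 1, then 61.2 ± 0.213% at day 2 and 64.8 ± 1.30% at day 3 (SD, n = 2 each). Cbx2 gave 11.8 ± 1.15%, 15.3 ± 0.581%, 27.5 ± 0.832% and 24.8 ± 0.244% on the same days. All libraries of days 2 and 3 lay below days 0 and 1 for Cbx7 and above them for Cbx2. The share of Cbx8 went from 0.229 ± 0.0424% at day 0 to 3.38 ± 0.737% at day 3, and that of Cbx6 from 10.7 ± 3.07% to 6.99 ± 0.802%. In the sorted cells the shares were 60.1 ± 5.87% for Cbx7, 28.8 ± 4.79% for Cbx2, 7.81 ± 1.21% for Cbx6 and 3.23 ± 0.219% for Cbx8 (n = 3). The order of Cbx7 and Cbx2 depends on the length used: with CPM per kilobase of the longest transcript, Cbx7 led at day 0 (59.8% against 26.3%) and Cbx2 at day 3 (47.6% against 41.6%). The direction of both shifts was the same on either scale.

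**Figure D3:**
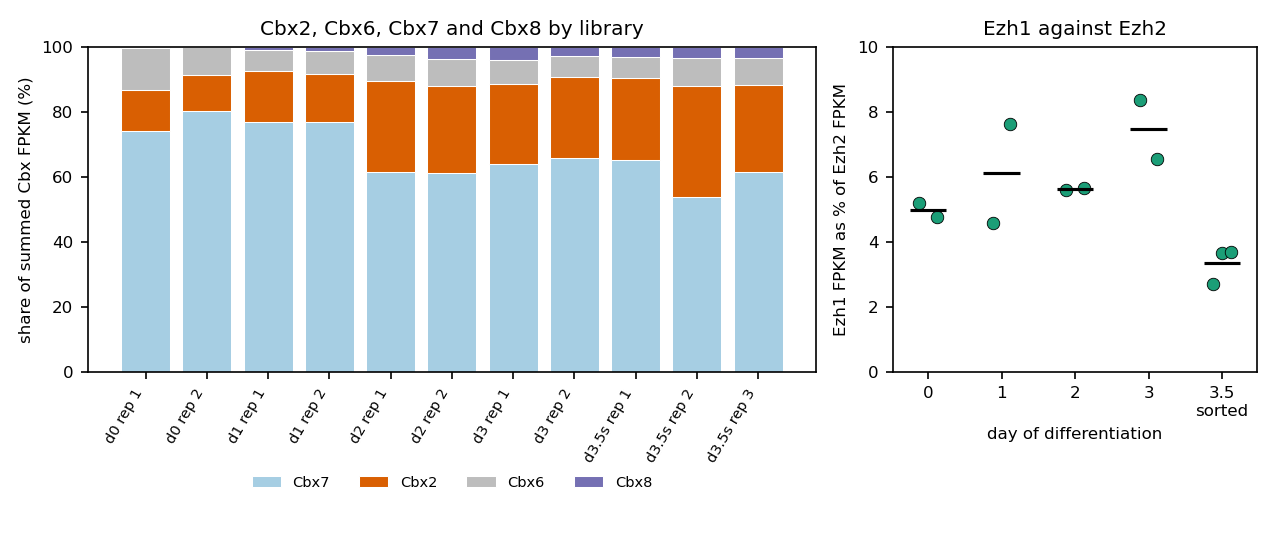
Left, share of each gene (y axis, percent) in the summed FPKM of Cbx2, Cbx6, Cbx7 and Cbx8, with 1 bar per library (x axis; d3.5s, sorted). Right, Ezh1 FPKM as a percent of Ezh2 FPKM (y axis) by day (x axis), with points for libraries and bars for group means; Cbx7 filled 74.2% and 80.3% of the bars at day 0 and 63.9% and 65.7% at day 3.

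By mean FPKM, the order at day 0 was Jarid2, Suz12, Ezh2 and Eed (106 to 164 FPKM), then Cbx7 at 54.0, then Cbx2, Cbx6 and Ezh1 (6.46 to 8.34), with Cbx8 last at 0.163. Within the first and the third of these sets each neighbour overlapped the next in range. At day 3 Ezh2 led at 106 ± 18.3 FPKM, ahead of Cbx7 (69.3 ± 6.45) and Suz12 (66.0 ± 1.10), whose ranges overlapped. Eed (33.8 ± 9.41) and Jarid2 (30.3 ± 2.60) overlapped each other, and Cbx2 (26.5 ± 2.20) was next. Ezh1 (7.80), Cbx6 (7.44) and Cbx8 (3.58) were last. Jarid2 thus moved from the first place to the fifth, while Cbx8 was last on every day.

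The sorted progenitors did not differ from the unsorted day 3 cultures beyond the test's threshold. By edgeR 0 of the 9 genes were called at day 3.5 against day 3, with 0.435% of the 17006 genes tested higher, 2.93% lower and 3.37% either. At an unadjusted p under 0.05 there were 2, Ezh1 and Ezh2; DESeq2 called 1, Ezh1. Ezh1 was at 34.4 and 30.6 CPM at day 3 and 20.4 to 23.9 after sorting, with no overlap, a change of -0.52 ± 0.14 (adjusted p = 0.0785 by edgeR, 0.025 by DESeq2). Ezh2 was higher in all 3 sorted libraries than in both day 3 libraries, by 0.50 ± 0.20 (adjusted p = 0.246). With the GC correction both were called (adjusted p = 0.0315 for Ezh1 and 0.0345 for Ezh2), but neither was once the replicate block was added to it. A lack of overlap was not particular to this pair. It was also seen for Suz12 (197 to 227 CPM sorted, 173 to 195 at day 3) and Cbx7 (146 to 158 and 161 to 184). The share of all genes without overlap is not given here. Extraembryonic endoderm markers fell in 6 of 6 genes across the same comparison, and their part in the result was not tested. For the genes that changed between day 0 and day 3, the sorted cells differed from day 3 by -0.06 (Jarid2, interval -0.35 to 0.24), 0.13 (Eed, -0.35 to 0.62), 0.24 (Suz12, -0.15 to 0.63), 0.05 (Cbx2, -0.25 to 0.35) and 0.12 (Cbx8, -0.52 to 0.76).

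Other Polycomb genes were read from lists of 30 genes. Of 8 PRC2 accessory subunits, 2 were higher and 4 lower at day 3 against day 0, with a median of -0.54, beside 27.6% higher and 26.3% lower among all genes tested (median 0.02). Mtf2, a Polycomb-like subunit that binds CpG-rich DNA, changed by -1.66 ± 0.24, E130012A19Rik (now Epop), which is prominent in stem cells, by -1.35 ± 0.21, and Phf19, a further Polycomb-like subunit, by -0.84 ± 0.25. The call of Phf19 was lost without day 0 replicate 1 (adjusted p = 0.0719), day 3 replicate 1 (0.0752) or day 3 replicate 2 (0.0648), and on all 3 FPKM scales (0.148 to 0.34); that of E130012A19Rik was lost on unfiltered FPKM (0.0531). The 2 that rose were Phf1 (1.81), the third Polycomb-like subunit, and Lcor (1.33), named after their values were seen. In the catalytic core of PRC1, which places ubiquitin on histone H2A, Ring1 rose by 2.94 ± 0.42 (adjusted p = 0.000421), from 5.56 and 2.46 CPM to 33.2 and 29.2. Its paralog Rnf2 changed by -0.49 ± 0.21 and was not called (adjusted p = 0.0798).

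Among 7 further canonical PRC1 subunits, 4 were higher and 2 lower, with a median of 0.74. For this and the next 3 lists the background is the same 27.6% of all genes higher and 26.3% lower, 53.9% in either direction, with a median of 0.02. Phc1, a polyhomeotic subunit, was lower by -2.34 ± 0.17 (524 and 435 CPM at day 0, 93.7 and 96.7 at day 3), and Scml2 by -2.81 ± 0.39, while Bmi1, a Pcgf subunit, rose by 1.90 ± 0.27. The paralogs of Phc1 went the other way: Phc2 rose by 2.58 ± 0.41 and Phc3 by 0.81 ± 0.21, both named after their values were seen. Of 13 variant PRC1 subunits, 5 were higher and 4 lower, with a median of -0.09; Auts2 rose by 2.21 ± 0.18, Bcorl1 by 1.98 ± 0.22 and Bcor by 0.64 ± 0.18. The call of Bcor was lost without day 0 replicate 2 (adjusted p = 0.0902) or day 3 replicate 2 (0.0631). Of 6 enzymes that remove the Polycomb marks or belong to such complexes, 1 was higher and 3 lower: Kdm6b, an H3K27 demethylase, rose by 1.44 ± 0.33, and Asxl2 and Usp16, of H2A deubiquitination, fell by 1.23 and 1.01 on the log2 scale. With the GC correction Kdm6b rose by 0.61, and on unfiltered FPKM the call of Usp16 was lost (adjusted p = 0.0581). The HP1 genes Cbx1, Cbx3 and Cbx5 share the chromodomain and the Cbx name but are not Polycomb; 1 of the 3 fell, Cbx1 by 1.03 on the log2 scale.

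**Figure D4:**
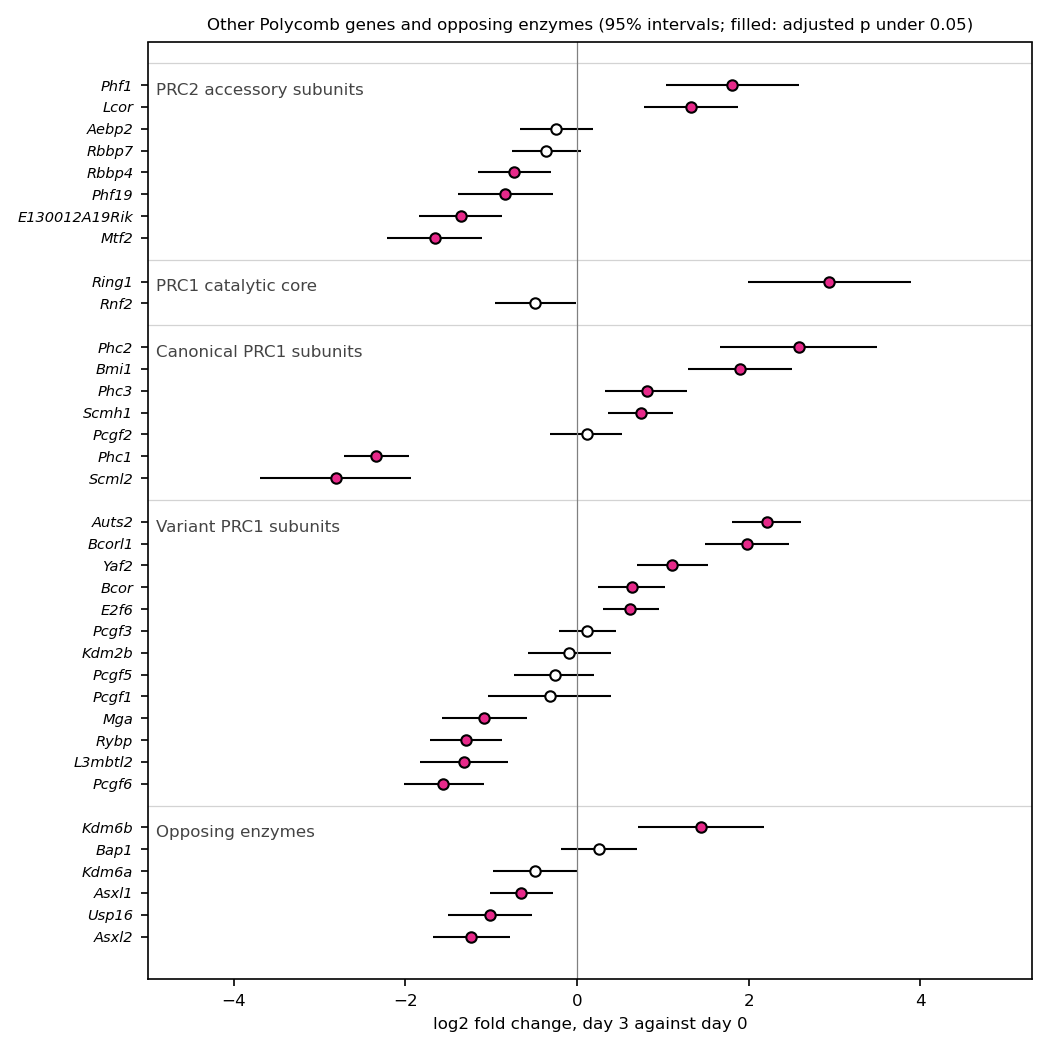
Log2 fold change at day 3 against day 0 (x axis) with 95% intervals from edgeR for 30 further Polycomb genes and 6 opposing enzymes, by list (y axis). Filled points had an adjusted p under 0.05; Ring1 (2.94) and Phc2 (2.58) are highest and Scml2 (-2.81) and Phc1 (-2.34) lowest.

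The genes closest in pattern over the 11 libraries were taken by Pearson correlation of log2(CPM + 1) among 11230 genes, as a description of libraries that share one time course. For Cbx2 they were Ankrd52 (0.993), Foxb1 (0.992) and Sall2 (0.991). For Ezh2 they were Tsn (0.962), Ddx5 (0.955) and Rrm1 (0.949), and for Ezh1 Rhox5 (0.956), A4galt (0.954) and Anxa4 (0.952). Cbx7 varied little, with an SD of 0.13 on this scale over the 11 libraries, and its closest genes were Mafg (0.867), Supt5 (0.858) and Ppm1m (0.851). Among the 9 genes themselves, Cbx2 and Cbx8 had a correlation of 0.98, Jarid2 and Cbx8 of -0.99, and Cbx2 and Cbx7 of 0.13.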

How the data were processed

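Polyadenylated RNA was sequenced from 11 libraries. The authors deposited counts per gene, which are whole for 38093 of 38197 genes and hold fractions, as estimated counts do, for the other 104, none of them among the 9 genes described; all were rounded here. The authors also deposited log2 values, which equal voom's log2 CPM recomputed from the counts to within 5.15e-14, and FPKM values. Per the submitters' processing notes the tools were limma, Cufflinks 2.1.1, TopHat2 2.0.4, HTSeq 0.6.1, bcl2fastq 1.8.3 and CASAVA, on GRCm38 (mm10). No source used here gives their roles, the annotation or the strand setting.

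Counts were tested with edgeR 4.0.16 in R 4.3.3 (TMM scaling, filterByExpr with a minimum count of 10, group means, quasi-likelihood test, Benjamini-Hochberg adjustment over all genes tested). One fit of the 8 unsorted libraries gave the comparisons between days and one of all 11 gave day 3.5 against day 3. Alternatives used DESeq2 1.42.0 and limma 3.58.1, other scalings and filters, a replicate block, a GC correction (lowess, span 0.3) and leaving out each library. Levels between genes were compared as FPKM. Each fit was tested on simulated counts first. One gene of the lists is not reported here and is in none of their counts. The 9 genes and the lists were chosen with earlier results of these data known. Besides the 9, up to 3 called genes of each list were named, those with the smallest adjusted p for any change over days 0 to 3; closest genes in pattern needed a group mean of at least 5 CPM. Replicate values in groups of 2 or 3 limit the precision of every SD.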

Additional observations from a re-analysis of the deposited data

How the results depend on the processing

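The net calls of Eed, Suz12, Jarid2, Cbx2 and Cbx8 (day 3 against day 0) held under all 11 alternatives and all 8 fits without 1 library. Adjusted p-values ranged up to 0.0306 for Suz12 and less for the others. The fold of Cbx8 on the log2(FPKM + 1) scale was 1.97, where low values are compressed by the pseudocount. Cbx7 reversed under the GC correction, to -0.454 both alone and together with the replicate block. The cause was not tested. The number of genes called lower over the net course was 3, and 5 with the GC correction, alone or with the block. At day 1 against day 0, 1 gene was higher, and 2 with all 11 libraries or the deposited log2 values, but 0 with the replicate block or log2(FPKM + 1), with or without a filter. There, 2 were lower, but 4 with the GC correction (with or without the block), 1 on the filtered FPKM scales and 0 without a filter. At day 2 against day 1, 2 were higher, but 1 with the GC correction (with or without the block) and 0 on unfiltered FPKM, and 2 were lower, but 3 with the GC correction alone and 1 on unfiltered FPKM. In the sorted cells 0 were called, but 1 was lower with DESeq2, and 1 higher and 1 lower with the GC correction alone. With the GC correction and the block, 0 were called there. The low-GC-trend alternative was chosen after seeing the data and kept 1 library each at days 0 and 1. In it Cbx6 changed by -0.802 at day 1 and by -0.59 over the net course.

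Leaving out 1 library, the numbers higher and lower ranged from 0 to 1 and 1 to 2 at day 1, 1 to 3 and 1 to 2 at day 2, and 2 to 2 and 3 to 4 over the net course, with 0 at day 3 and in the sorted cells. The Ezh1 to Ezh2 ratio ranged from 4.58% to 8.38% unsorted and 3.17% to 3.67% sorted. With CPM per kilobase, that ratio was 4.27% to 9.25% over the unsorted libraries and 2.97% to 4.27% over the sorted ones, the Cbx2 share was 26.3%, 35.5%, 50.7%, 47.6% and 50.8% from day 0 to the sorted cells, and the Cbx7 share 59.8%, 55.1%, 38.0%, 41.6% and 38.0%. Adding another gene to the Cbx sum was not run.

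Deviations of same-numbered libraries correlated from -0.69 to 0.32 between days. The differences between replicates also followed GC content, with correlations of 0.59, -0.68, -0.31 and 0.32 at days 0, 1, 2 and 3. These deviations were not corrected for GC, so they cannot show whether the replicate numbers pair the libraries. The replicate block cost the day 1 call of Cbx8 (adjusted p = 0.0575) and, without the GC correction, changed no other call of the 9 genes. Over all genes, the counts behind the background shares moved: at day 1 from 2015 higher and 1498 lower to between 973 and 2978 and between 533 and 2873, and at day 2 from 1623 and 1679 to between 486 and 2493 and between 408 and 2468. At day 3 against day 2 they moved from 473 and 211 to between 10 and 1402 and between 3 and 1049, lowest without day 3 replicate 1. Over the net course they moved from 4641 and 4422 to between 3465 and 5257 and between 2964 and 5070. In the sorted cells they moved from 74 and 499 to between 11 and 353 and between 161 and 856. Any change was called for 9033 genes, and for 5639 to 10655 under the alternatives.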
